A study of Drosophila melanogaster with 4 samples.

Results

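The binding of GAGA factor (GAF) was examined at 5 pair-rule genes of Drosophila melanogaster: h, odd, slp1, slp2 and opa. GAF is a zinc-finger protein encoded by Trl that binds GA-rich DNA. The genes were covered by 4 fixed windows on release 5 of the genome, since slp1 and slp2 lie side by side and share 1 window. A member was any region with a score above 0 that overlapped a window by at least 1 bp. Such regions are called clusters here. The windows held 12 of the 6474 clusters in the authors' combined list, 10 of the 5694 in ChIP replicate 1 and 11 of the 5709 in ChIP replicate 2.

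The study used whole wild-type Oregon-R embryos labelled 14 to 16 hours, cross-linked with formaldehyde, in 2 GAF chromatin immunoprecipitation (ChIP) libraries and 2 input libraries. All 4 share this strain, genotype and stage, and each ChIP library had, per the labels, the input of the other number. Nothing in the labels ties the 2 ChIP replicates to different collections of embryos, and their spread may therefore be technical. In whole embryos, binding in fewer cells and weaker binding per cell cannot be told apart. Scores are those the authors gave to their regions, on a scale that is not stated, and are reported as values, differences and percentiles of their list. A percentile is the percentage of clusters in the same list with a lower score or width.

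Pair-rule genes divide the early embryo into segments by acting in alternate segment-wide units. Their products are transcription factors, and most are made in stripes. Several of them are used again later in embryonic development. GAF is known for binding promoters and Polycomb response elements and for keeping chromatin open at developmental genes. Of the 5 genes, h encodes a basic helix-loop-helix repressor that acts early in the pair-rule hierarchy, odd encodes a zinc-finger repressor, slp1 and slp2 encode related forkhead repressors, and opa encodes a zinc-finger protein of the Zic family that is made in a broad domain and is also needed in the midgut.

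All 4 windows carried GAF clusters in both replicates. Most windows of the same widths laid along the large arms also held a cluster in the combined list. No combined cluster was found in 181 of 1982 windows of 60 kb, 292 of 2378 of 50 kb and 232 of 2162 of 55 kb. Holding a cluster thus does not by itself set these loci apart. The share of such windows with clusters in both replicates was not computed. The scores of the 12 combined clusters ran from the 0.216 to the 99.0 percentile of the list, with the highest at the edge of the odd window and the lowest inside it. Both replicates had a cluster at 10 of the 12, against 79.5% of all combined clusters. Replicate 2 matched all 10 member clusters of replicate 1 (92.3% over its whole list), and replicate 1 matched 10 of the 11 of replicate 2 (91.7% over its whole list). The 2 without a counterpart in either replicate were both in the odd window. The median score was 1.94 for the 12 and 1.06 for the other 6462 combined clusters, and the median widths were 2258 and 2201 bp. Scores exceeded the median of the whole list at 7 of the 12 and widths did so at 8. A median splits its list evenly by definition, and both counts are near an even split of the 12. No test was made on these medians, because clusters are not replicates.

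**Figure D1:**
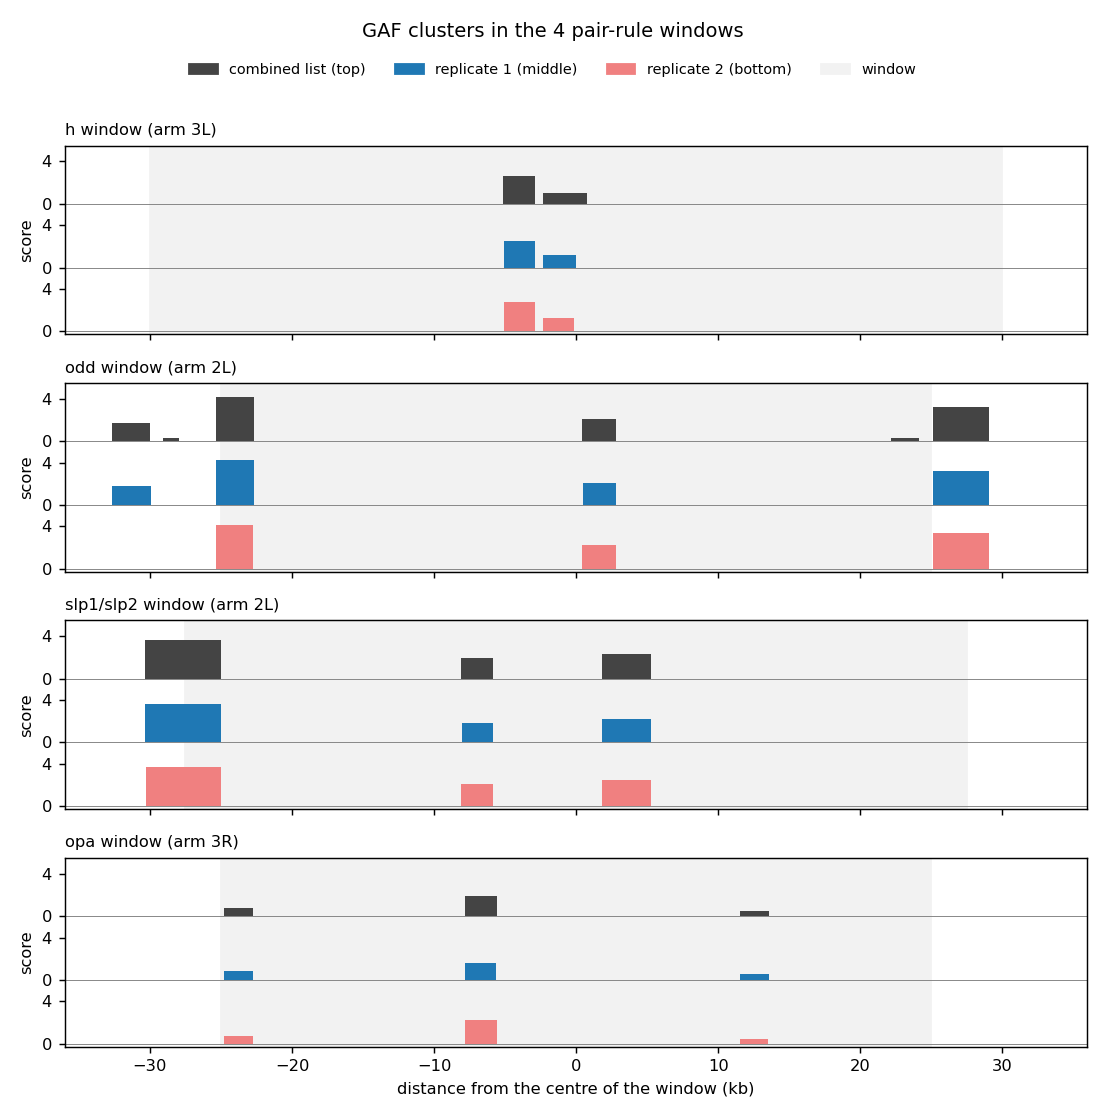
GAF clusters in the windows of h, odd, slp1/slp2 and opa, drawn by distance from the window's centre in kb, with bar height as the authors' score; grey shading marks the window. The strongest clusters of odd and slp1/slp2 cross the left edge of their windows, and clusters with scores near 0 (0.00513 in the odd window, 0.0327 in the h window) are too low to see.

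The h window, chr3L:8640000-8700000, held a close pair of clusters and little else. The stronger cluster, chr3L:8664885-8667108, scored 2.52 in replicate 1 and 2.75 in replicate 2, which is 2.64 ± 0.16 (mean ± SD, n = 2). The weaker one, chr3L:8667672-8670802, scored 1.20 and 1.23, or 1.21 ± 0.03 (n = 2). In the combined list they stood at the 81.8 and 48.8 percentiles. The stronger h cluster outscored its neighbour in both libraries, by far more than either changed between them.

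Only 563 bp separated the h pair in the combined list, and 596 and 573 bp in replicates 1 and 2. Of the 6208 gaps between neighbouring combined clusters on the 5 large arms 7.23% were shorter, and the median gap was 8389 bp. The pair was kept apart as 2 clusters in all 3 lists. The weaker cluster was drawn differently in the combined list, at 3131 bp wide with a score of 1.02, against 2286 bp in replicate 1 and 2164 bp in replicate 2. Its combined score was below both replicate scores, which was so at 1 of the 10 clusters found in both replicates and at 23.4% of the 5028 such clusters of the whole list that had 1 counterpart each. Its end moved by 143 bp between the replicates, a larger shift than at 88.1% of paired clusters.

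A further region of the h window changed sign between lists. Replicate 2 called a cluster at chr3L:8688870-8690528 with a score of 0.0327, which ranks 9 from the bottom of its list. Replicate 1 called nothing there. The combined list had a region on nearly the same stretch, chr3L:8688973-8690528, with a score of -0.0670, taken here as depleted. Both scores are near 0, each smaller in size than the SD of 0.199 that 1 cluster's score shows between replicates. The combined list held 210 regions below 0, against 12 in replicate 1 and 8 in replicate 2. This stretch was the only depleted region that any list placed in the 4 windows. Apart from it, the last 29198 bp of the h window held no combined cluster.

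The odd window, chr2L:3580000-3630000, had the strongest GAF cluster of the 12. It lay at chr2L:3579662-3582300 and scored 4.20 in replicate 1 and 4.14 in replicate 2, or 4.17 ± 0.04 (n = 2). In the combined list it scored 4.16, the 99.0 percentile, and ranked 63 of 6474. It was less extreme in width, at 2639 bp and the 68.3 percentile. This cluster crosses the left edge of the window, with 338 bp outside it. In the RefSeq gene order of release 6, the protein-coding gene next to odd on that side is sob, with drm further out, and both encode zinc-finger proteins of the odd-skipped family. Which gene the cluster lies in or near was not determined, because no gene annotation of release 5 was used here.

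The cluster nearest the middle of the odd window, chr2L:3605432-3607824, was about as wide but much weaker. Its score was 2.11 in replicate 1 and 2.20 in replicate 2, or 2.15 ± 0.06 (n = 2), at the 72.6 percentile of the combined list. The odd window had the smallest spread between replicates of the 4 windows, with a difference of 0.0853 here and of 0.0542 at the edge cluster. This rests on 2 paired clusters at odd, and the weaker h cluster alone differed by less, 0.0356. The other 2 clusters of the odd window were in the combined list alone. The one at chr2L:3593524-3595170 had a score of 0.00513, near the bottom of the list, and a width of 1647 bp. The one at chr2L:3627160-3629142 had a score of 0.332, at the 21.7 percentile, and a width of 1983 bp. Of all combined clusters, 9.21% likewise had no counterpart in either replicate.

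The slp1 and slp2 window, chr2L:3805000-3860000, held 3 clusters in every list, and all 3 were matched between the lists. The 2 genes follow one another in RefSeq order with no protein-coding gene between them. The pair of clusters inside the window stood 10511 bp apart, centre to centre. The first, chr2L:3824423-3826673, scored 1.84 in replicate 1 and 2.10 in replicate 2, or 1.97 ± 0.18 (n = 2). The second, chr2L:3834319-3837799, scored 2.20 and 2.47, or 2.34 ± 0.19 (n = 2). The second cluster was the higher and the wider in both replicates, at 3457 and 3475 bp against 2209 and 2245 bp for the first. Both scored higher in replicate 2, by 0.258 and 0.272. The scores of the 2 clusters did not overlap, but only narrowly. The 2.10 of the first in replicate 2 and the 2.20 of the second in replicate 1 lay closer than either cluster's 2 replicates. Neither cluster was assigned to slp1 or to slp2.

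The remaining cluster of the slp1 and slp2 window, chr2L:3802169-3807503, was both the strongest and the widest there. It scored 3.64 in replicate 1 and 3.71 in replicate 2, or 3.68 ± 0.05 (n = 2), the 96.0 percentile of the combined list. Its combined width of 5335 bp was the largest of the 12 clusters, at the 95.3 percentile. Of that width 2831 bp lay outside the window, before its left edge. From the second inner cluster to the right edge, 22201 bp held no cluster.

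The opa window, chr3R:660000-710000, had the lowest top score of the 4 loci. It held 3 clusters, all found in both replicates. The middle one, chr3R:677158-679421, scored 1.58 in replicate 1 and 2.21 in replicate 2, or 1.90 ± 0.45 (n = 2). The left one, chr3R:660209-662281, scored 0.841 and 0.700, or 0.770 ± 0.099 (n = 2). The right one, chr3R:696540-698563, scored 0.538 and 0.415, or 0.477 ± 0.087 (n = 2). The middle opa cluster was the highest of the 3 in each replicate, and both flanking clusters scored below the median of their list in each. The widths were alike, from 2024 to 2264 bp in the combined list, and the clusters were spread out, with gaps of 14876 and 17118 bp.

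The middle opa cluster also changed most between the replicates. Its difference (replicate 1 minus replicate 2) was -0.631, larger in size than at 96.4% of the 5109 clusters paired 1 to 1. That is 2.27 times the SD of those differences over the genome, 0.279. This difference is the largest of 10, so its place among all pairs is not that of a pair picked at random. The flanking opa clusters went the other way, by 0.141 and 0.124. Over the 10 paired clusters of the 4 windows the size of the difference ran from 0.0356 to 0.631, and it stayed under that SD at the other 9, whereas 27.0% of all pairs reached it. Replicate 2 scored higher at 7 of the 10 and at 58.0% of all pairs. Starts moved by at most 79 bp between the replicates, a larger shift than at 79.7% of all pairs. Ends moved by at most 143 bp, larger than at 88.1% of all pairs. These are the largest of 10 shifts, so they are not comparable with the medians over all pairs, 28 bp each.

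**Figure D2:**
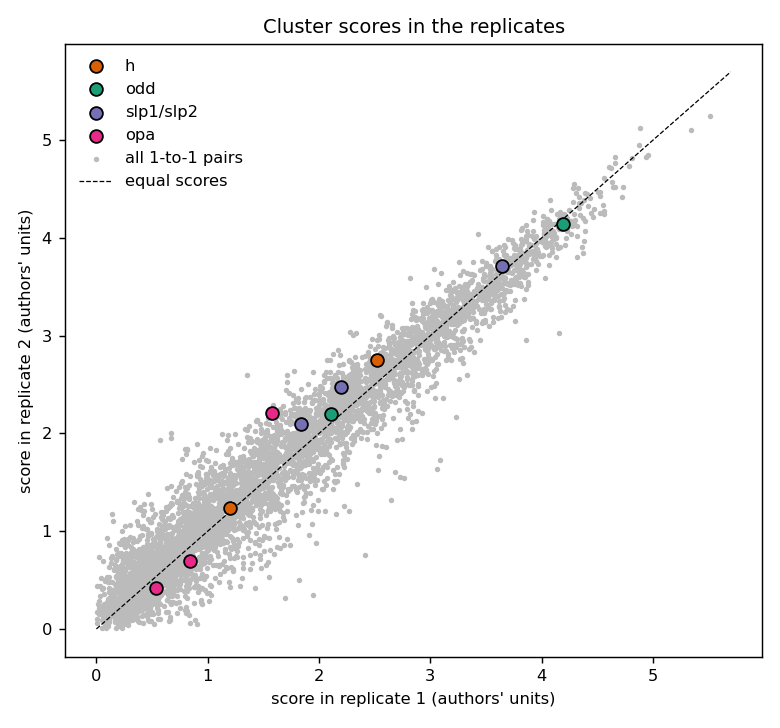
Score of each cluster in replicate 1 (x axis) and replicate 2 (y axis), in the authors' units, for the paired clusters of the 4 windows (large points) and all 5109 pairs (small grey points); the dashed line marks equal scores. The middle opa cluster, at 1.58 and 2.21, stands farthest from the line of the 10, and the odd cluster at 4.20 and 4.14 lies close to it.

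The loci were next compared by their highest score. In each replicate the order was odd, slp1/slp2, h, opa. The highest scores of odd and slp1/slp2 differed by 0.491 ± 0.085, those of slp1/slp2 and opa by 1.78 ± 0.40, those of odd and opa by 2.27 ± 0.48, and those of h and opa by 0.739 ± 0.286 (mean ± SD of the difference, n = 2). The highest score of h was below that of odd by a mean difference (h minus odd) of -1.53 ± 0.20, and below that of slp1/slp2 by one of -1.04 ± 0.11. Each of these 6 differences kept its sign in both replicates, which follows from the shared order and is no separate result. Each was larger in size than the SD of 0.199 that 1 cluster's score shows between replicates over the genome. That SD is for a single score, and a difference between 2 clusters can vary more. With 2 replicates, an exact two-sided permutation test of 2 values against 2 cannot go below 0.333, so no p is given.

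This order rested on the clusters that cross the window edges. Among clusters wholly inside their window the highest score was 2.64 ± 0.16 at h, 2.34 ± 0.19 at slp1/slp2, 2.15 ± 0.06 at odd and 1.90 ± 0.45 at opa (n = 2 each). The h window then came first, above odd by 0.483 ± 0.101 and above slp1/slp2 by 0.299 ± 0.031. The difference of odd minus slp1/slp2, at -0.185 ± 0.132, was smaller than the SD of 0.199 that a single score shows between replicates. A difference between 2 clusters can vary more than that SD, which also limits the reading of the h differences. The difference of odd minus opa changed sign, from 0.529 in replicate 1 to -0.0173 in replicate 2.

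Sequence just beyond the edges also carried clusters. A combined cluster at chr2L:3630128-3634069, 128 bp past the right edge of the odd window, scored 3.25. Before the left edge of the odd window lay a weak cluster that neither replicate had, 2932 bp away with a score of 0.279. The nearest cluster before the h window was 5560 bp away and scored 0.353. The left opa cluster began 209 bp inside its window.

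**Figure D3:**
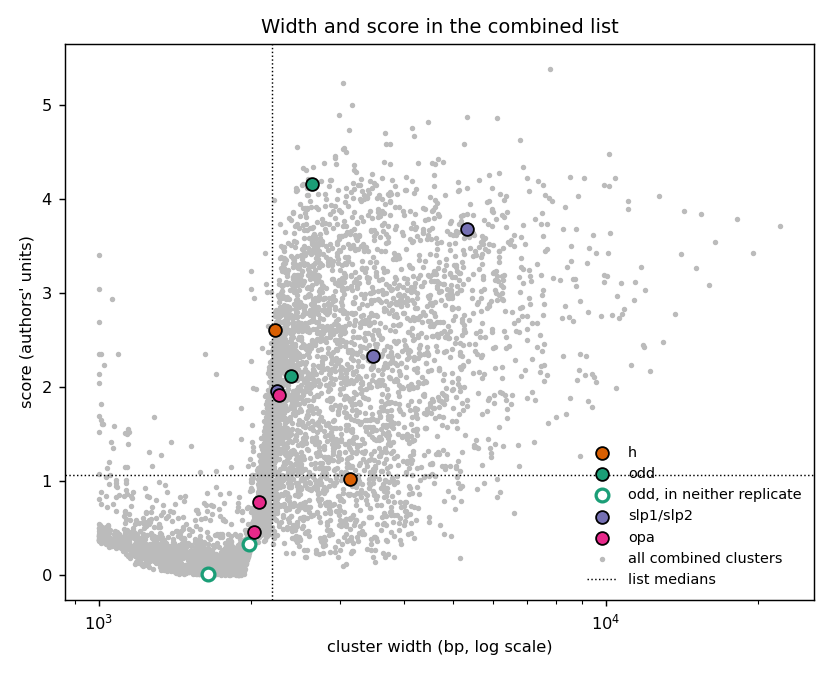
Width (x axis, bp, log scale) and score (y axis, authors' units) of the 12 combined clusters of the windows (large points) and of all combined clusters (small grey points); open circles mark the 2 odd clusters that neither replicate had, and dotted lines mark the medians of the list. The odd edge cluster is high at 2639 bp, while the slp1/slp2 edge cluster combines a high score with 5335 bp, and the opa clusters lie between 2024 and 2264 bp.

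The windows held 2 to 4 combined clusters, close to the typical number for their widths. These counts were set beside adjoining windows of the same width laid along the 5 large arms and counted in the same way. The h window had 2 combined clusters, 2 in replicate 1 and 3 in replicate 2, and 41.8% of 1982 windows of 60 kb had 2 or fewer combined clusters. The odd window had 4 combined clusters and 2 in each replicate, and 81.5% of 2378 windows of 50 kb had 4 or fewer. The slp1 and slp2 window had 3 in every list, and 62.1% of 2162 windows of 55 kb had 3 or fewer. The opa window also had 3 in every list, and 66.9% of the windows of 50 kb had 3 or fewer. The median was 3 combined clusters at each of these widths. On the window's own arm it was 3 for h and 2 for odd, slp1/slp2 and opa. In each replicate list the median over the 5 arms was 3 at 60 kb and 2 at 55 and 50 kb.

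Per 10 kb of window this was 0.800 clusters at odd, 0.600 at opa, 0.545 at slp1/slp2 and 0.333 at h in the combined list. In the replicates odd had 0.400 per 10 kb and was below opa and slp1/slp2, since the 2 weak odd clusters were not called there. Clusters covered 16.6% of the odd window, 15.0% of the slp1/slp2 window, 12.7% of the opa window and 8.92% of the h window in the combined list. In the replicates they covered 9.28 ± 0.05% at odd, 14.9 ± 0.1% at slp1/slp2, 12.6 ± 0.04% at opa and 8.77 ± 1.83% at h (mean ± SD, n = 2). The h share was 7.48% in replicate 1 and 10.1% in replicate 2, which adds the cluster of score 0.0327.

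The median score of a window's clusters gave another order of the loci. In the combined list it was 2.33 at slp1/slp2, 1.81 at h, 1.22 at odd and 0.773 at opa. In the replicates it was 3.16 ± 0.01 at odd, 2.34 ± 0.19 at slp1/slp2, 1.55 ± 0.44 at h and 0.770 ± 0.099 at opa (n = 2 each). The odd value is the midpoint of 2 clusters, the edge cluster at 4.17 ± 0.04 and the inner one at 2.15 ± 0.06. These 2 moved in opposite directions between replicates, so the SD of their midpoint is below that of either. The h median was 1.86 in replicate 1 and 1.23 in replicate 2, which adds the cluster of score 0.0327. The odd value was thus lower in the combined list by far more than its replicate spread, because that list adds its 2 weak clusters, and opa came last in both. Median widths in the combined list were 3481 bp at slp1/slp2, 2678 bp at h, 2188 bp at odd and 2073 bp at opa. In the replicates they were 3466 ± 13 bp, 2204 ± 56 bp, 2483 ± 13 bp and 2050 ± 19 bp in the same order of loci (n = 2 each).

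The highest score of each window was set beside the same background. Of the windows of 50 kb, 2.57% had a highest combined score at or above the 4.16 of odd. At slp1/slp2, 11.5% of windows of 55 kb reached its 3.67. At h, 43.1% of windows of 60 kb reached 2.61, and at opa 55.9% of windows of 50 kb reached 1.92. The h and opa windows were thus near the middle of the background, and the values of odd and slp1/slp2 come from their edge clusters.

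**Figure D4:**
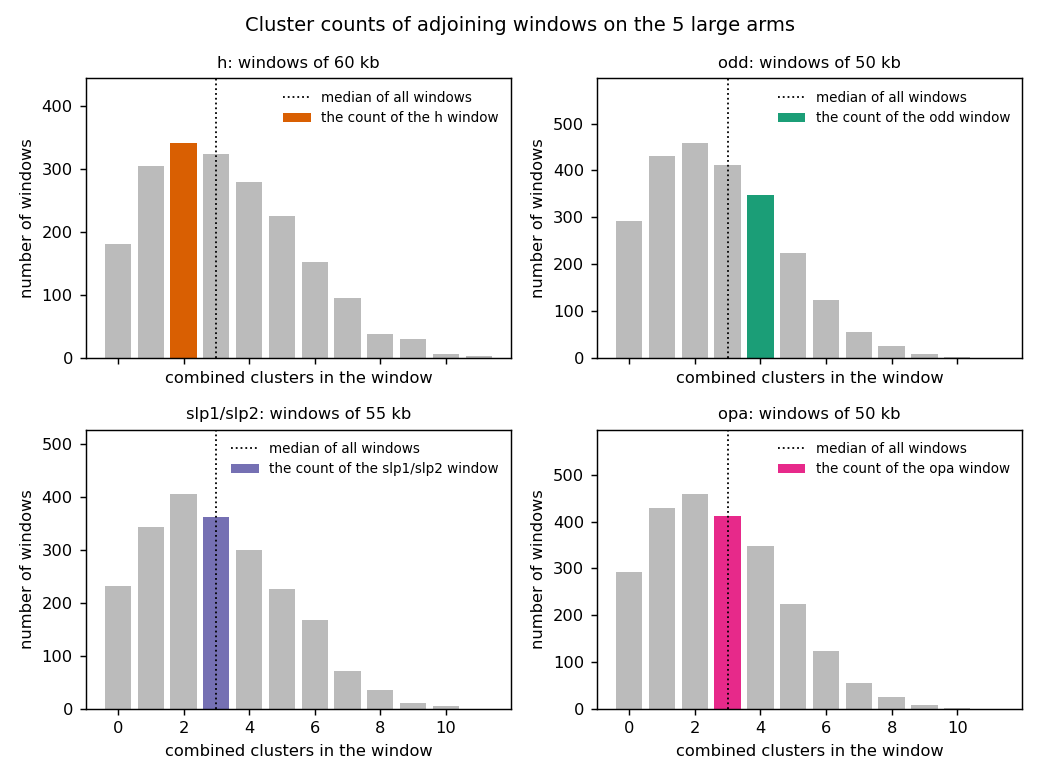
Number of adjoining windows on the 5 large arms (y axis) by the number of combined clusters they hold (x axis), for windows as wide as those of h (60 kb), odd and opa (50 kb) and slp1/slp2 (55 kb). Coloured bars mark the count of the named window (2, 4, 3 and 3 clusters for h, odd, slp1/slp2 and opa) and dotted lines the median of 3.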

How the data were processed

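The region lists of the 2 ChIP replicates and 1 combined list were used; the input libraries were not analysed here. Positions refer to FlyBase release 5, per the file headers. The submitters' processing notes name Bowtie 0.12.7. The region caller, its thresholds and the pooling of replicates were not given in the sources used here. Each region has a deposited score with a sign. Regions above 0 were taken as enriched and those below 0 as depleted. Depth is unknown, since the files hold no read counts, and no interval from counts was made.

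Windows were taken from the rule that defines the loci. Overlap meant at least 1 shared bp. Replicate clusters were paired 1 to 1 where each overlapped the other alone. All 5 genes matched the RefSeq table of release 6, h under the symbol hry. It was used for gene order alone, since its build differs. The planned search of promoter sequences for GA-rich motifs was not run, as no sequence was used here. Every cluster of the windows is accounted for; the highest-scoring and widest of each window and those not found in both replicates are described in full. The members, windows and comparisons were chosen with earlier results of these data known. The routines for overlap and pairing were tested on simulated data. Python 3.11.15, numpy 2.4.6, pandas 2.3.3 and scipy 1.17.1 were used.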

Additional observations from a re-analysis of the deposited data

How the results depend on the processing

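Of 165 values recomputed under alternatives, 100 stayed within the spread between replicates (or, for counts, within 1.5 times) and 65 moved. The cause was not tested beyond what each setting removes by construction. With a single replicate list in use, 15 values stayed and 9 moved for each replicate. That spread comes from the same 2 lists, so these results are not independent of it. No paired analysis was possible because the groups that share replicate numbers are ChIP and input, and the inputs were not analysed here. Differences between loci were taken within each ChIP replicate, as values with no test. The motif alternatives were not run. Depth is unknown, so what it limits cannot be stated.

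Windows narrowed by 10 kb gave odd 2 clusters (1 found in both replicates), a median score of 1.06, a highest score of 2.12, a median width of 2020 bp and 13.5% covered. They gave slp1/slp2 a highest score of 2.33, a median width of 2866 bp and 16.4% covered. They gave opa a median score of 1.19, a median width of 2144 bp and 14.3% covered, and h 13.4% covered. Windows widened by 10 kb gave odd 7 clusters (4 in both replicates), a median score of 1.77, a median width of 2393 bp and 23.5% covered. For h the median score was 1.02 with a median width of 2224 bp, and coverage was 14.8% at slp1/slp2 and 9.09% at opa.

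Clusters wholly inside the window gave odd a median score of 0.332, a highest score of 2.12, a median width of 1983 bp, 12.0% covered and 1 cluster found in both replicates. They gave slp1/slp2 a highest score of 2.33, a median width of 2866 bp and 10.4% covered.

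With scores under the list's median removed, clusters numbered 1 at h (0.167 per 10 kb, 1 in both replicates), 2 at odd (0.400 per 10 kb) and 1 at opa (0.200 per 10 kb, 1 in both replicates). Their median scores were 2.61 at h, 3.14 at odd and 1.92 at opa. Their median widths were 2224, 2516 and 2264 bp, and they covered 3.71%, 9.39% and 4.53% of these windows.

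A single replicate list in place of the combined one gave 2 clusters at odd with either replicate (0.400 per 10 kb), and 2 to 3 at h (0.333 to 0.500 per 10 kb). Median scores ran from 1.23 to 1.86 at h and from 3.15 to 3.17 at odd. Median widths ran from 2164 to 2244 bp at h, from 2474 to 2493 bp at odd, from 3457 to 3475 bp at slp1/slp2 and from 2036 to 2063 bp at opa. The share covered ran from 9.24% to 9.32% at odd, from 14.8% to 15.0% at slp1/slp2 and from 12.5% to 12.6% at opa. A reciprocal overlap of 50% left all 10 shared clusters shared.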
